A study of Mus musculus with 14 samples.

Results

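The nuclear-encoded subunits of the mitochondrial respiratory chain and of ATP synthase were followed in mouse brain. They were chosen by symbol from the count table: all genes beginning with Ndufa, Ndufb, Ndufc, Ndufs, Ndufv, Uqcr, Cox4 to Cox8 or Atp5, together with Sdha to Sdhd and Cyc1, without the 7 complex I assembly factors Ndufaf1 to Ndufaf7. This gave 83 of 13866 listed genes, of which 35 belong to complex I, 4 to complex II, 9 to complex III, 16 to complex IV and 15 to complex V. Ndufa4, once counted with complex I, is placed in complex IV. The remaining 4, Ndufa4l2, Cox7a2l, Atp5s and Atp5sl, carry such a symbol without being fixed subunits. The brains came from 14 mice of 19 days, 1 library per mouse. WT mice (C57BL/6JOlaHsd) received PBS (3 mice, WT + PBS) or CBE (3 mice, WT + CBE), and MyTrMaSt null mice received PBS (3 mice, MyTrMaSt + PBS) or CBE (5 mice, MyTrMaSt + CBE). CBE, conduritol B-epoxide, blocks acid beta-glucosidase irreversibly and so models neuronopathic Gaucher disease; it was injected daily at 100 mg/kg from day 8. MyTrMaSt null mice are deficient in Myd88, Trif, Mavs and Tmem173, adaptors through which Toll-like receptors, RIG-I-like receptors and STING signal. The WT mice came from a commercial supplier, while for the null mice the paper refers to an earlier description. It mentions no littermate controls, so genotype and colony cannot be told apart.

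The respiratory chain passes electrons from NADH (complex I) and succinate (complex II) through ubiquinone to complex III, from there by cytochrome c to complex IV, and on to oxygen. The protons pumped by complexes I, III and IV drive ATP synthase, complex V. Neurons depend heavily on this ATP for ion pumping and synaptic work. The complexes are built from a few catalytic subunits and many accessory ones, and apart from complex II they also hold subunits encoded by mitochondrial DNA, which were not analysed here.

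Nuclear genes of the chain are known targets of NRF1, a transcription factor whose site was searched as GCGC, any base, TGCGC on both strands. The 250 bases before the RefSeq start of transcription are shown for 3 members that fell with CBE in MyTrMaSt mice, as they include the pair of promoters with the most matches and 1 without any. The sequences are RefSeq promoters on GRCm38.p6, written 5′ to 3′ on the gene's strand, with each match to the motif on either strand in capitals. The stretches lie at chr13:74350241-74350490 (minus strand, Sdha), chr16:37654369-37654618 (minus strand, Ndufb4) and chr1:58586147-58586396 (plus strand, Ndufb3). GENCODE vM21, used for gene positions here, starts these 3 genes further upstream, so the 3′ part of each stretch lies inside its gene model.
Sdha: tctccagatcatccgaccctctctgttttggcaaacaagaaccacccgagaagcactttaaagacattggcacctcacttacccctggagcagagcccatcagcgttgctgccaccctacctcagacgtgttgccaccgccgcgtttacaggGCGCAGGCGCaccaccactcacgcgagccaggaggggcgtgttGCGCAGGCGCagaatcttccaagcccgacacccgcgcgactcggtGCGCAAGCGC
Ndufb4: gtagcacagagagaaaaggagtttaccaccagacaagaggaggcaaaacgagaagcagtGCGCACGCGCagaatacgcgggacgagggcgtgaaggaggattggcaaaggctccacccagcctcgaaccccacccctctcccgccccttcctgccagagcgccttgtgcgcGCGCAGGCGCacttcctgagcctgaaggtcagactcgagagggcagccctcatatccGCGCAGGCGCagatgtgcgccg
Ndufb3: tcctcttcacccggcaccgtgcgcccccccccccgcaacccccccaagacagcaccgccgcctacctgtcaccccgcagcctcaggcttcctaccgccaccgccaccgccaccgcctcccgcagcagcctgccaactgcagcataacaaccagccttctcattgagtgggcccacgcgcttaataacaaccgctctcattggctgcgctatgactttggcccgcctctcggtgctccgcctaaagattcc
Sdha and Ndufb4 each hold 3 matches and Ndufb3 holds 0. Of the 69 members with a promoter in the table, 16 (23.2%) had the motif in the 300 bases around the start, against 10.6% of the 10530 genes in the count table that have one. The GABPA motif CCGGAAG was also in 16 members (23.2%, against 17.9%). The YY1 motif, AAGATGG followed by CGGC, was in 5 (7.25%, against 1.61%). With CBE in MyTrMaSt mice the median log2 fold change was -0.16 for the 15 tested members with the motif and -0.16 for the 51 without it. In WT mice it was -0.50 with and -0.38 without the motif, and -0.19 and -0.13 when WT + PBS replicate 1 (described next) was left out. Among called members with a promoter in the table, the motif was in 3 of 5 in MyTrMaSt mice and in 0 of 7 in WT mice, and without that library in 4 of 16 and 0 of 4.

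The libraries held 1290616 to 3704691 counts each, and the median member had 548 to 1507 counts in a library. Of the 83 members, 79 were tested, among 11852 genes that passed the filter on low counts. The other 4 were near the detection limit in every library, Cox7b2 at 0 to 7 counts, Cox8b at 0 to 11, Ndufa11 at 0 to 8 and Uqcrb at 1 to 13. Only reads that map once were kept, and 46.6% of the 50-base stretches at the 3′ end of Uqcrb also occur in other annotated genes. Its counts are therefore uncertain. Of the genes altered in the null mice, Myd88 was the only one whose PBS groups separated in the labelled direction, with 9 to 17 counts per MyTrMaSt + PBS library against 19 to 36 per WT + PBS library. The MyTrMaSt + PBS libraries held 10 to 26 counts of Ticam1, which encodes Trif, 7 to 25 of Mavs and 18 to 20 of Tmem173, and the WT + PBS libraries 10 to 22, 11 to 25 and 1 to 9. Tmem173 counts were thus higher in the PBS libraries labelled MyTrMaSt. With CBE, Myd88 had 10 to 22 counts in the libraries labelled MyTrMaSt against 45 to 71 in WT, while Tmem173 overlapped (17 to 34 against 10 to 30). Reads were taken from transcript 3′ ends, and whether these reads lie in a deleted part was not tested. All 8 neuronal markers examined were counted, with a summed level of 3670 to 5849 CPM (counts scaled to library size). Xist, which marks female cells, had 0 counts in all 3 WT + PBS libraries and 32 to 46 in the 3 MyTrMaSt + PBS libraries, so sex and genotype cannot be told apart among PBS-injected mice. Xist counts were 47, 1 and 30 in WT + CBE and 25, 39, 28, 0 and 18 in MyTrMaSt + CBE. Sex and CBE are thus partly mixed in the WT comparison, as no WT + PBS library held Xist counts.

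WT + PBS replicate 1 stood apart. It was the smallest library and differed from the mean of WT + PBS replicates 2 and 3 by a median of 0.71 on the log2 CPM scale over the members, against 0.01 over all tested genes. The counts of members called with CBE are therefore given with and without it.

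Summed over all members, the level in CPM was 60940, 40540 and 38300 in the WT mice given PBS, and 35270, 35620 and 35430 in those given CBE. It was 41890, 44360 and 43730 in MyTrMaSt + PBS, and 38350, 39400, 38450, 39750 and 37880 in MyTrMaSt + CBE. Every CBE library lay below every PBS library of its genotype. The mean with CBE differed by -23.9% in WT mice, by -10.1% without WT + PBS replicate 1, and by -10.5% in MyTrMaSt mice. In a bulk brain sample, fewer cells rich in these transcripts and less of them per cell cannot be told apart.

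**Figure D1:**
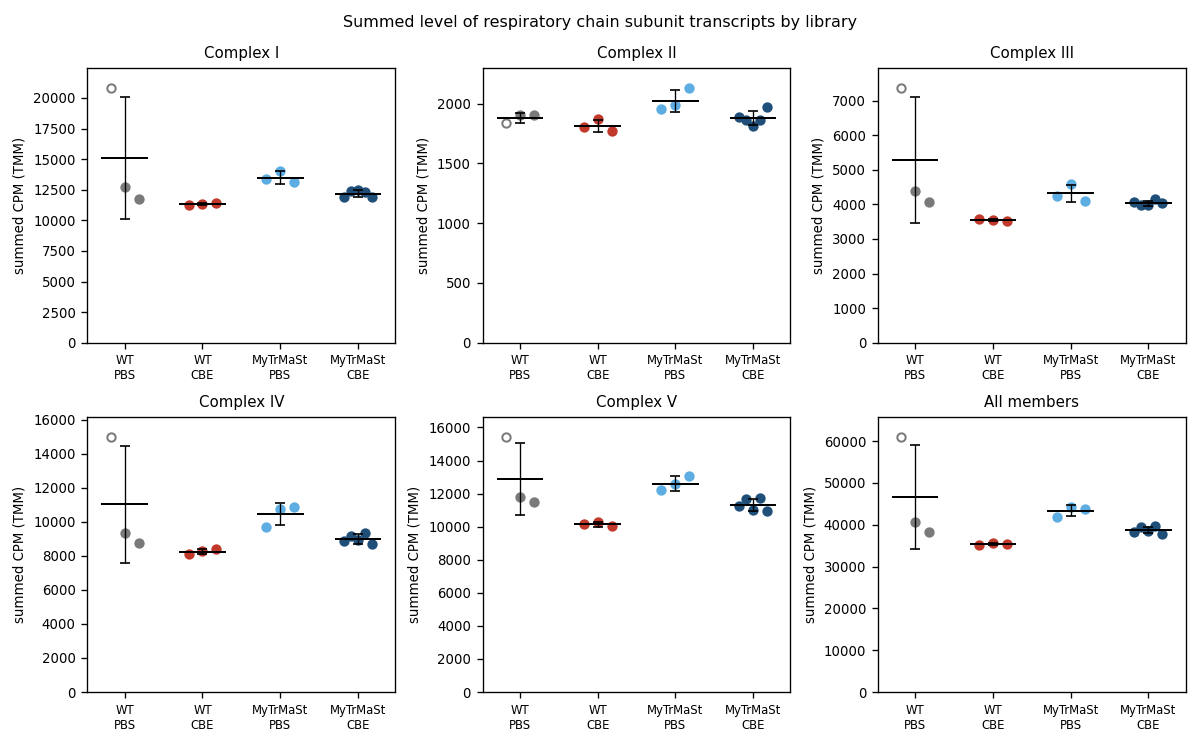
Summed CPM of the members of complexes I to V and of all members (vertical axes, starting at 0) in each library of the 4 groups. Dots are libraries, lines and bars are the mean ± SD (n = 3, 3, 3 and 5) and the open dot is WT + PBS replicate 1, at 60940 for all members. Complex II was the only one in which this library was not the highest.

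The plot of summed levels shows the same order in complexes I, III, IV and V, with MyTrMaSt + CBE between the 2 PBS groups and WT + CBE in group means. Complex I summed to 15080 ± 4985 (SD, n = 3) in WT + PBS, 11340 ± 66.5 (n = 3) in WT + CBE, 13500 ± 496.6 (n = 3) in MyTrMaSt + PBS and 12190 ± 261.4 (n = 5) in MyTrMaSt + CBE. With CBE the mean sum of MyTrMaSt mice differed by -9.69% for complex I, -7.28% for complex II, -6.53% for complex III, -13.8% for complex IV and -10.3% for complex V. In WT mice without replicate 1 the difference was -7.23%, -4.79%, -16.1%, -8.77% and -12.8% in the same order. With replicate 1 these WT values were -24.8%, -3.62%, -32.8%, -25.1% and -21.4%. The value nearest 0 was that of complex II in WT mice either way and that of complex III in MyTrMaSt mice. Differences between complexes were not tested.

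The first comparison asked what CBE changed in WT mice. All 7 members that passed an adjusted p of 0.05 in the edgeR quasi-likelihood test (Benjamini-Hochberg) fell: Ndufb2 of complex I, Uqcrh and Uqcr11 of complex III, and Atp5j2, Atp5d, Atp5g1 and Atp5e of complex V. They are 8.86% of the 79 tested members, against 3.89% of all tested genes that fell and 10.6% that changed in either direction. The median log2 fold change was -0.37 over the members and -0.02 over all genes, and 72 of 79 members were below 0 (51.8% of all genes). The groups did not overlap, with CBE lower, for 29 members (36.7%, against 12.8% of all genes) and, with CBE higher, for 0 (15.1% of all genes). Of the 7, Atp5j2 also passed 2-fold, which 1.21% of all genes did downwards.

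Ndufb2, an accessory subunit of the membrane arm of complex I, was at 1108, 509.8 and 508.8 CPM with PBS and at 385.2, 372.2 and 352.5 with CBE. All CBE libraries were below all PBS libraries, and the log2 fold change came to -0.93 (SE 0.22, edgeR adjusted p = 0.0111). For Atp5j2, subunit f of the membrane part of ATP synthase, the WT + PBS libraries stood at 1229, 445.4 and 495.7 CPM and the WT + CBE libraries at 413.7, 280.2 and 274.2. These groups did not overlap either, with a difference of -1.15 on the log2 scale (SE 0.29, adjusted p = 0.0150). Uqcrh, the hinge protein of complex III that assists electron transfer to cytochrome c, ran at 781.5, 756.8 and 661.9 CPM with PBS and at 533.0, 429.0 and 506.8 with CBE. Here replicate 1 was close to the others, and the log2 fold change of -0.58 (SE 0.16, adjusted p = 0.0246) hardly moved without it (-0.53, adjusted p = 0.0262). The Uqcrh call was lost under 8 of 23 alternative settings (adjusted p up to 0.141).

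The other 4 called members no longer passed without replicate 1, and replicate 1 was their highest library. Uqcr11, a small subunit of complex III, was at 1739 CPM there and at 638.6 and 528.2 in replicates 2 and 3, while the CBE libraries had 469.3, 491.9 and 520.6. Leaving that library out took the difference from -0.97 (SE 0.30, adjusted p = 0.0459) to -0.23 (adjusted p = 0.299) on the log2 scale. Atp5d and Atp5e, subunits delta and epsilon of the central stalk of ATP synthase, went from -0.75 to -0.39 and from -0.77 to -0.35. Atp5g1, which encodes the c subunit of the rotor, went from -0.75 to -0.36, with adjusted p-values of 0.0640, 0.130 and 0.0542 for the 3 genes without replicate 1. Exons of Atp5d overlap those of Cbarp on the opposite strand, and exons of Ndufb2 those of Braf, so reads could be shared if counting ignored strand. Of the 50-base stretches at the 3′ end of Atp5g1, 45.9% also occur in other annotated genes, so its counts are uncertain, as are those of Cox7c and Cox6c (28.4% and 13.4%). The share was 14.2% for Cox6a1, 11.6% for Ndufb2, 10.9% for Uqcr11 and 10.6% for Ndufb3.

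Without WT + PBS replicate 1, 4 members fell in WT mice (5.06% of 79, against 4.05% of 12090 tested genes): Ndufb2 (log2 fold change -0.45, adjusted p = 0.0104), Uqcrh, Atp5j2 (-0.53, adjusted p = 0.0405) and Ndufa4 (-0.67, SE 0.16, adjusted p = 0.00750). Ndufa4 was at 80.3 CPM in replicate 1, at 155.6 and 215.1 in replicates 2 and 3, and at 100.4, 133.3 and 113.3 with CBE. The share called was thus close to that of all genes, while the direction was still mostly one way: 65 of 79 members were below 0 (50.2% of all genes), the median was -0.14 against -0.00 over all genes, and 36 members (45.6%, against 22% of all genes) had groups that did not overlap with CBE lower. Leaving out another library changed the number of calls from 7 to 16 (WT + PBS replicate 2), 30 (WT + PBS replicate 3), 2 (WT + CBE replicate 1), 2 (WT + CBE replicate 2) and 0 (WT + CBE replicate 3). With the Xist level, which was unevenly spread over the WT groups, as a covariate 1 member was called.

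The same question was asked in MyTrMaSt mice. There 5 members passed and all fell: Ndufb3, Ndufa5 and Ndufb4 of complex I, Sdha of complex II, and Atp5sl. They are 6.33% of 79, against 2.44% of all genes that fell and 7.75% that changed in either direction. The median log2 fold change was -0.16 over the members and 0.01 over all genes, and 59 of 79 members were below 0 (49.4% of all genes). The groups did not overlap, with CBE lower, for 26 members (32.9%, against 10.7% of all genes) and, with CBE higher, for 0 (11.8% of all genes). Of the 5, 0 passed 2-fold, which 0.658% of all genes did downwards.

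Ndufb3, an accessory subunit of the membrane arm of complex I whose gene lies at chr1:58586384-58595964 (GRCm38, plus strand), was at 220.6, 223.5 and 268.1 CPM in MyTrMaSt + PBS and at 146.9, 127.3, 133.3, 125.1 and 138.2 in MyTrMaSt + CBE. The groups were far apart, and the log2 fold change was -0.82 (SE 0.15, adjusted p = 0.00175). In WT mice it was at 222.0, 153.4 and 131.2 CPM with PBS and at 132.7, 141.3 and 134.4 with CBE, groups that overlapped. Ndufb4, of the same arm, was at 190.6, 171.7 and 316.3 CPM in MyTrMaSt + PBS and at 159.4, 127.3, 111.9, 99.5 and 146.0 in MyTrMaSt + CBE. The groups did not overlap, and the log2 fold change of -0.81 (SE 0.24, adjusted p = 0.0473) shrank to -0.48, no longer passing, without MyTrMaSt + PBS replicate 3, the highest library. The Ndufb4 call was lost under 12 of 23 alternative settings (adjusted p up to 0.378), and that of Ndufb3 under 0. Ndufa5, in the matrix arm, was at 220.6, 328.6 and 370.6 CPM in MyTrMaSt + PBS and at 220.2, 195.3, 204.7, 183.1 and 229.0 in MyTrMaSt + CBE. Replicate 1 of the PBS group lay within the CBE range, and the log2 fold change was -0.57 (SE 0.15, adjusted p = 0.0226), a call lost under 6 settings (adjusted p up to 0.209).

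Sdha, the flavoprotein that oxidises succinate and so joins the citric acid cycle to the chain, was at 471.0, 479.7 and 563.2 CPM in MyTrMaSt + PBS and at 399.4, 369.9, 376.5, 390.4 and 377.7 in MyTrMaSt + CBE. The groups did not overlap, and CBE and PBS differed by -0.40 on the log2 scale (SE 0.11, adjusted p = 0.0288). This call was lost under 8 of 23 alternative settings (adjusted p up to 0.201). Atp5sl is named after ATP synthase, but its annotated symbol is now Dmac2 and its product is known as an assembly factor of the distal membrane arm of complex I. It was at 127.4, 125.7 and 146.5 CPM in MyTrMaSt + PBS and at 99.0, 76.6, 101.3, 86.7 and 99.8 with CBE, a difference of -0.52 on the log2 scale (SE 0.15, adjusted p = 0.0337) that was lost as a call under 9 settings. Thus 3 of the 5 are accessory subunits of complex I, and 0 of 8 tested members of complex III, 0 of 14 of complex IV and 0 of 15 of complex V passed.

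**Figure D2:**
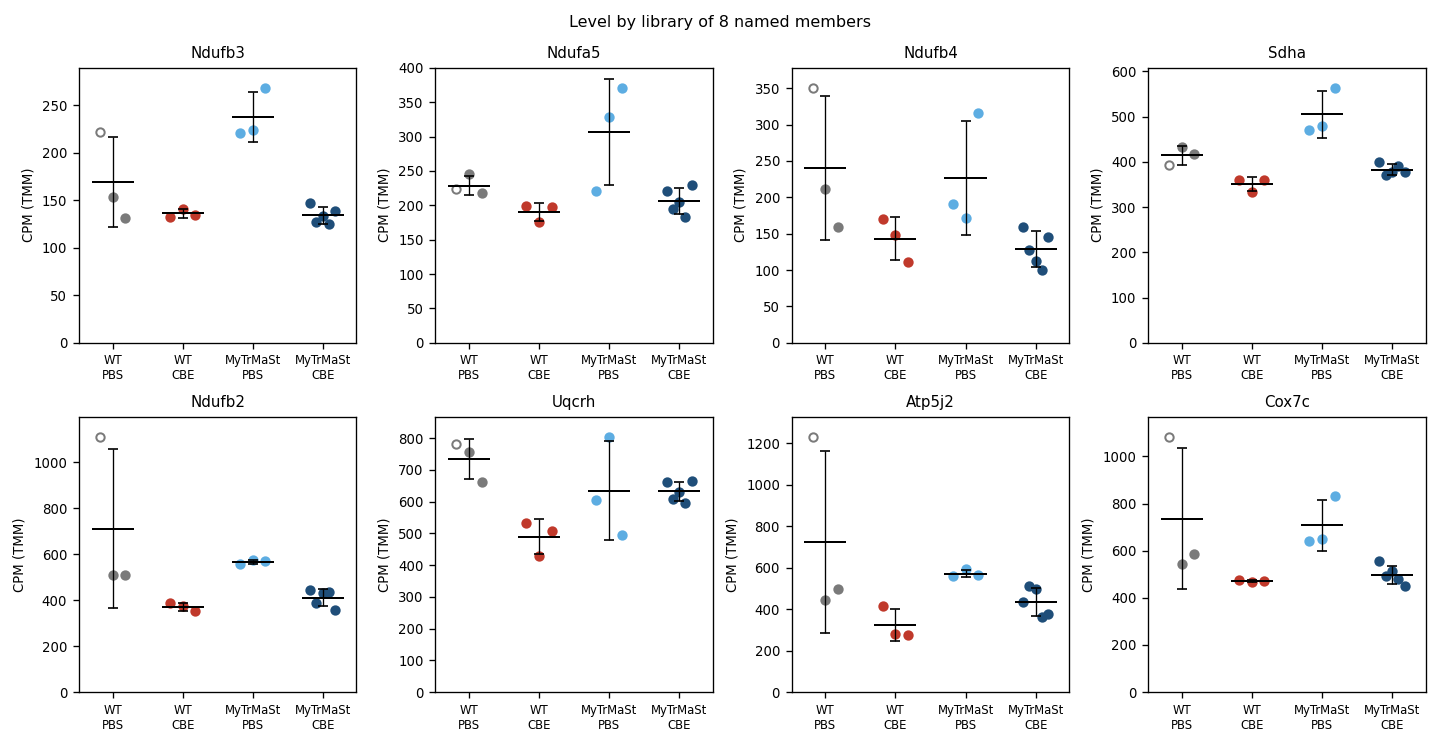
CPM of 8 named members (vertical axes, starting at 0) in the libraries of the 4 groups. Dots are libraries, lines and bars the mean ± SD (n = 3, 3, 3 and 5), and open dots WT + PBS replicate 1. Ndufb3 was at 220.6 to 268.1 in MyTrMaSt + PBS and at 125.1 to 146.9 in MyTrMaSt + CBE.

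WT + PBS replicate 1 has no part in the means of the MyTrMaSt groups, but it entered the shared estimate of spread. Without it the fold changes in MyTrMaSt mice barely moved (the median went from -0.16 to -0.15), while 17 members instead of 5 passed, all lower (21.5%, against 7.87% of all genes). Besides the 5 above, these were Ndufb2, Ndufc1, Ndufa1, Ndufb6 and Ndufa8 of complex I, Cox5a, Cox6c, Cox7a2, Cox7b and Cox7c of complex IV, and Atp5b and Atp5j2 of complex V. Cox7c, a small structural subunit of complex IV, was at 640.9, 651.7 and 832.7 CPM with PBS and at 554.5, 491.2, 513.5, 478.1 and 450.5 with CBE, without overlap. Its log2 fold change was -0.51 (adjusted p = 0.0910) with all libraries and -0.50 (SE 0.10, adjusted p = 0.00124) without WT + PBS replicate 1. The 8 complex I members called this way are accessory subunits, as are 27 of the 34 tested.

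The MyTrMaSt calls were few enough for single libraries to matter. They numbered 17 without WT + PBS replicate 1, 3 without WT + CBE replicate 2, 3, 2 and 1 without MyTrMaSt + PBS replicates 1, 2 and 3, and 1, 3, 2 and 2 without MyTrMaSt + CBE replicates 2, 3, 4 and 5. With the Xist level as a covariate 1 member was called.

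The 2 CBE comparisons share no library. In both, 53 of 79 members were below 0 (67.1%, against 31.2% of all genes), and 1 was above 0 in both. Without WT + PBS replicate 1 the number was 51 (64.6%, against 33.6%). Across the 79 members the sizes of the 2 changes were unrelated with all libraries (Spearman's rho -0.08, against 0.38 across all genes) and weakly related without that library (0.31, against 0.55). Genes are not independent replicates, and these values only describe the members.

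**Figure D3:**
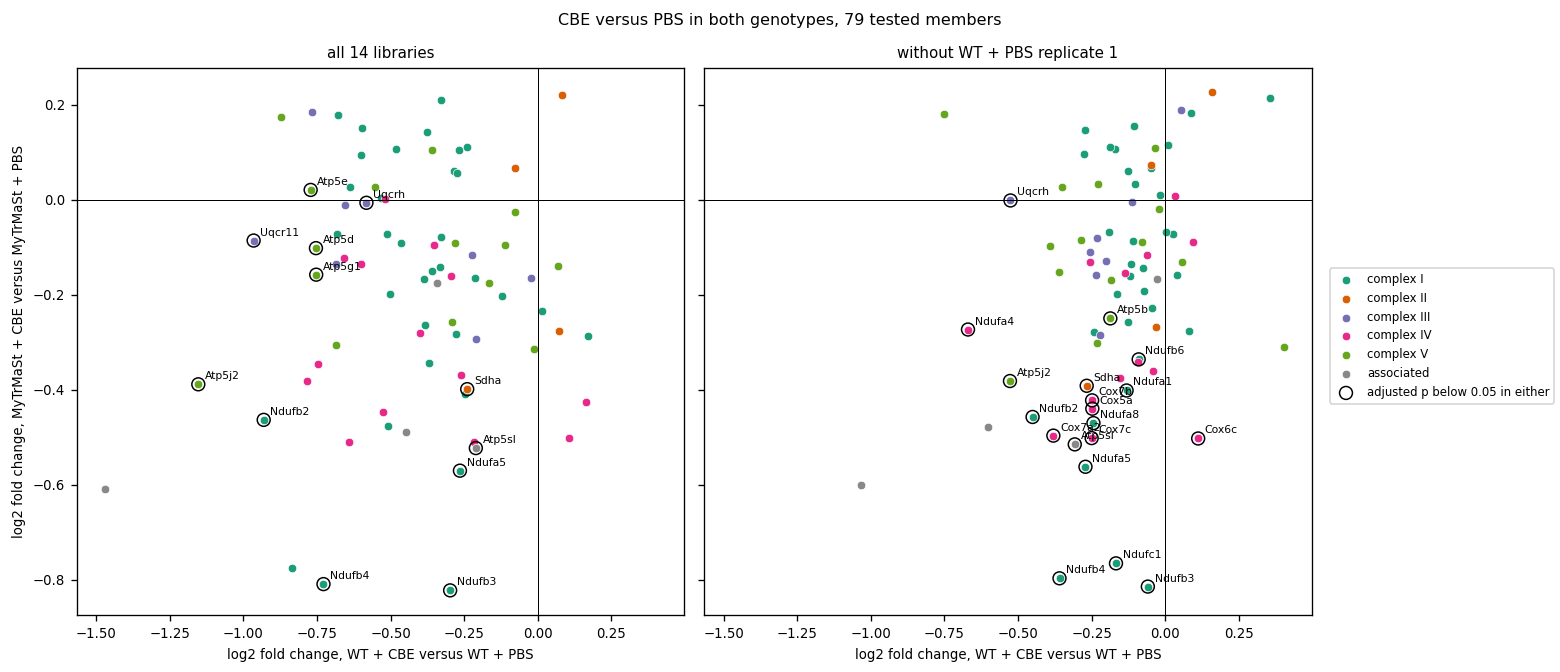
Log2 fold change of CBE versus PBS in WT mice (horizontal) and in MyTrMaSt mice (vertical) for the 79 tested members, coloured by complex, with all libraries (left) and without WT + PBS replicate 1 (right). Circled points have an adjusted p below 0.05 in at least 1 genotype. The cloud lies mostly in the lower left, with 53 and 51 members below 0 in both, and moves towards 0 on the horizontal axis without that library.

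A comparison added after the data were seen averaged the CBE effect over both genotypes in the same model. In it 18 members fell (22.8%, against 6.66% of all genes) and 0 rose, and 78 of 79 were below 0 (51.9% of all genes). The 4 with the smallest p were Ndufb3 (log2 fold change -0.56, adjusted p = 0.00193), Ndufb2 (-0.70, adjusted p = 0.00299), Cox7c (-0.58, adjusted p = 0.00666) and Cox5a (-0.49, adjusted p = 0.00684). Without WT + PBS replicate 1, 24 members fell (30.4%, against 11.7% of all genes). Ndufb7, an accessory complex I subunit that was below 0 with all libraries, rose in that fit (0.29, adjusted p = 0.0450). All of these changes stayed under 2-fold, except for Ndufa4l2 with all libraries (-1.04). Ndufa4l2 had only 2 to 17 counts per library.

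By complex, all tested members, called ones included, spread as follows. In complex I the log2 fold changes ran from -0.93 (Ndufb2) to 0.17 (Ndufs1) in WT mice and from -0.82 (Ndufb3) to 0.21 (Ndufb7) in MyTrMaSt mice. Ndufs1, the largest core subunit, was at 34.3 CPM in WT + PBS replicate 1 and at 148.2 to 236.4 in the other 13 libraries, and its WT value became -0.24 without replicate 1. In complex III the range was -0.97 (Uqcr11) to -0.02 (Uqcrc2) and -0.29 (Uqcrfs1) to 0.18 (Uqcrc1). Uqcrc1 and Uqcrc2, the paired core proteins, moved apart in WT + PBS replicate 1, at 657.9 and 130.0 CPM against 201.7 and 241.5 in replicate 2.

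Complex II behaved differently from gene to gene. Sdhb, the iron-sulfur subunit, was at 787.3 ± 32.8 CPM (SD, n = 3) in WT + PBS, 745.3 ± 31.9 (n = 3) in WT + CBE, 732.5 ± 12.9 (n = 3) in MyTrMaSt + PBS and 767.3 ± 41.4 (n = 5) in MyTrMaSt + CBE, with log2 fold changes of -0.08 and 0.07. The membrane anchors Sdhc (0.07 in WT, or -0.03 without replicate 1, and -0.28 in MyTrMaSt) and Sdhd (0.08 and 0.22) had adjusted p-values of 0.207 and more with all libraries. Without WT + PBS replicate 1 those in MyTrMaSt mice were 0.0683 for Sdhc and 0.118 for Sdhd. Sdha had -0.24 in WT mice (adjusted p = 0.241).

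In complex IV the range was -0.78 (Cox7a1) to 0.17 (Cox7b) in WT mice and -0.51 (Cox7c) to 0.00 (Cox4i1) in MyTrMaSt mice. Of the paired isoforms, the general form was the more abundant in every library, though barely so for Cox7a in WT + PBS replicate 1 (Cox7a2 at 41.5 CPM, Cox7a1 at 37.9). Since each read marks the 3′ end of a transcript, these levels are CPM per gene without division by length. Cox6a1 was at 2631 to 3927 CPM and its heart and muscle form Cox6a2 at 24.1 to 65.0. Cox7a2 was at 290.4 to 596.5 CPM outside WT + PBS replicate 1, and its heart and muscle form Cox7a1 at 5.63 to 18.7 there. Cox6b1 was at 605.9 to 1343 CPM and the testis form Cox6b2 at 0.94 to 9.93, and Cox8a was at 291.5 to 630.8 CPM while its muscle form Cox8b was among the genes not tested. None of these isoforms passed the test with all libraries in either genotype.

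In complex V the range was -1.15 (Atp5j2) to 0.07 (Atp5a1) in WT mice and -0.39 (Atp5j2) to 0.18 (Atp5g2) in MyTrMaSt mice. Atp5g2 was at 1.57 to 5.42 CPM, and 47.3% of the 50-base stretches at its 3′ end also occur in other genes, so its value is uncertain. Atp5b, the catalytic beta subunit and, after Cox6a1, the most abundant member by the mean over 14 libraries, was at 2474 to 3063 CPM with PBS and 2173 to 2288 with CBE in WT mice, and at 2619 to 3074 with PBS and 2300 to 2492 with CBE in MyTrMaSt mice. In both genotypes its groups did not overlap, while the log2 fold changes were small, -0.29 (SE 0.12, adjusted p = 0.134) and -0.26 (SE 0.10, adjusted p = 0.147). Cox4i1 was at 1843, 1609 and 4104 CPM in WT + PBS replicates 2, 3 and 1 and at 1702 to 2066 in all other libraries. It was the third most abundant member by the mean over 14 libraries, a rank that rests on replicate 1.

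**Figure D4:**
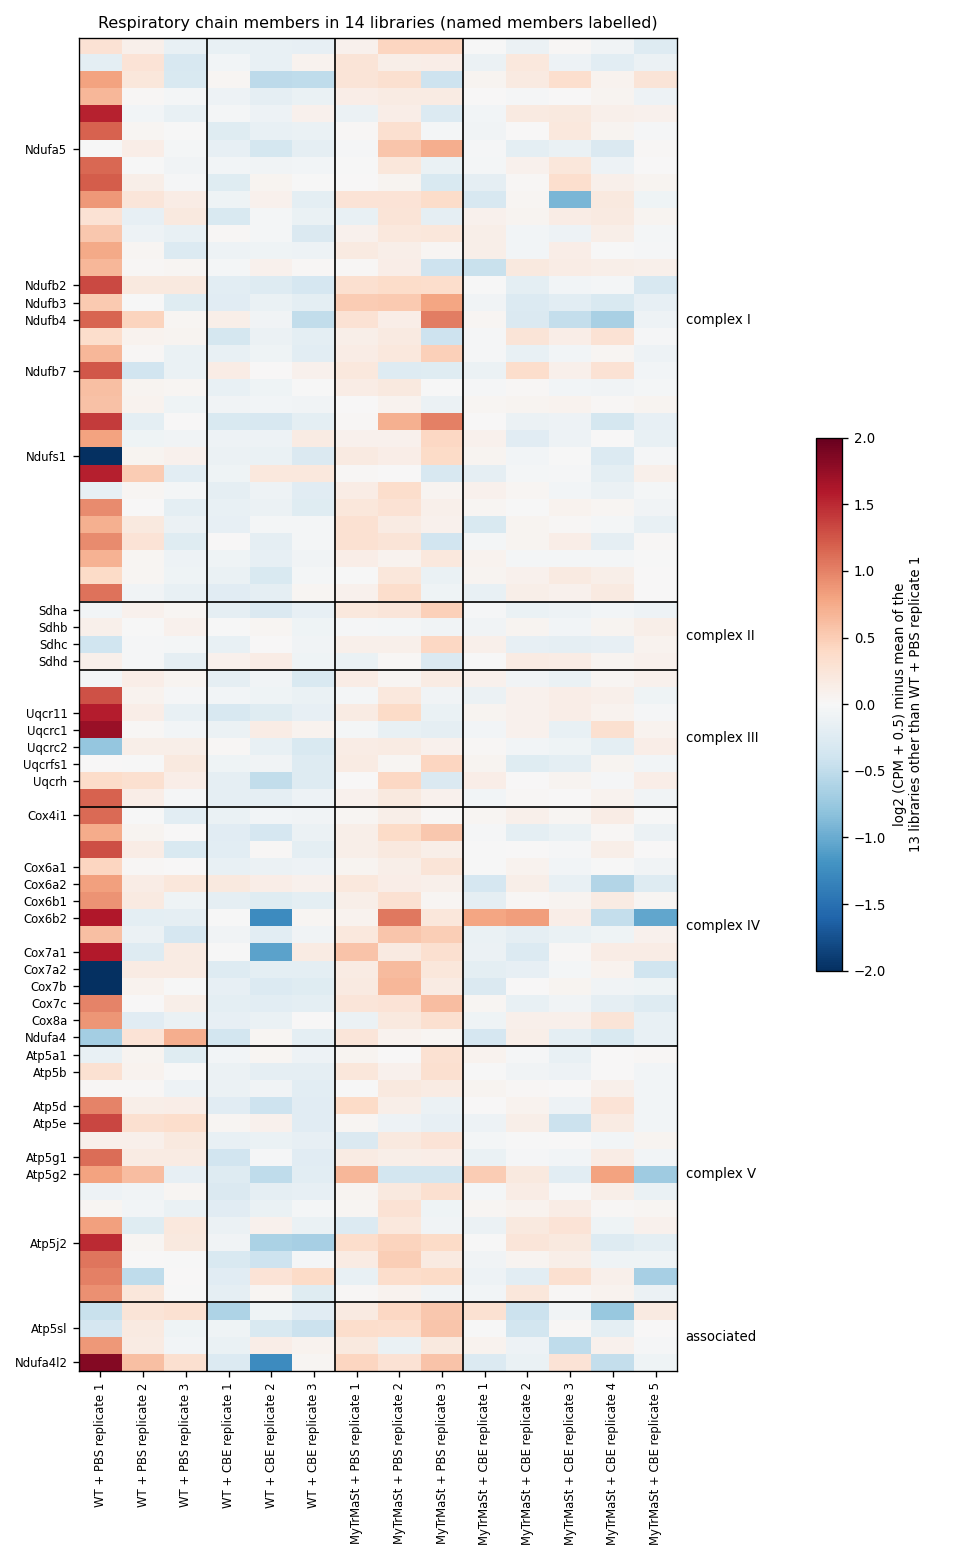
Log2 (CPM + 0.5) of 78 tested members (rows, by complex, with the named ones labelled) in the 14 libraries (columns), minus its mean over the 13 libraries other than WT + PBS replicate 1; red is higher, blue lower, and the scale stops at 2 either way. WT + PBS replicate 1 is red for most members and deep blue for Cox7a2, Cox7b and Ndufs1, and the CBE columns are slightly paler or bluer than the PBS columns.

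The difference between the genotypes was tested in each treatment. Between the PBS groups 0 members passed by edgeR (0.186% of all genes passed), 14 had an unadjusted p below 0.05 (17.7% of 79, against 16.8%), DESeq2 called 1 and limma voom 2. The median was -0.11 and turned to 0.14 without WT + PBS replicate 1, when 2 members were higher in MyTrMaSt mice (2.53%, against 0.091% of all genes). These were Ndufb3 (log2 fold change 0.73, SE 0.13, adjusted p = 0.0147) and Cox6c (0.63, SE 0.13, adjusted p = 0.0285). They share the MyTrMaSt + PBS libraries with the CBE comparison in which both genes were lower. Without that library 26 members did not overlap with MyTrMaSt + PBS higher (32.9%, against 14.9% of all genes). With all libraries the share of members was below that of all genes (10.1%).

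Between the CBE groups 0 members passed by edgeR (2.54% of all genes passed), and 3 had an unadjusted p below 0.05 (3.80%, against 8.06%); DESeq2 and limma voom also called 0. The log2 fold change was below 0 for 10 of 79 members (46.6% of all genes), with a median of 0.13 against 0.02 over all genes. For 23 members the groups did not overlap with MyTrMaSt + CBE higher (29.1%, against 3.94% of all genes), and for 0 with it lower (6.02% of all genes). Uqcrh had the smallest p, at 489.6 ± 54.1 CPM (SD, n = 3) in WT + CBE and 632.1 ± 30.6 (n = 5) in MyTrMaSt + CBE, a difference of 0.37 on the log2 scale (adjusted p = 0.372).

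Whether CBE acted differently in the 2 genotypes was tested as the interaction, the change in MyTrMaSt mice minus that in WT mice. By edgeR 0 members passed (0.489% of all genes passed), with 12 at an unadjusted p below 0.05 (15.2%, against 12.5%); DESeq2 called 0 and limma voom 1. The median of 0.21 fell to -0.02 without WT + PBS replicate 1. Then 1 member passed, Ndufb3 (-0.76, SE 0.17, adjusted p = 0.0292), whose CBE difference was -0.81 in the MyTrMaSt and -0.06 in the WT mice on the log2 scale (0.868% of all genes passed).

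Since WT + PBS replicate 1 decides so much, its members were described further. Compared with replicates 2 and 3, 62 of 79 members were higher in it, 24 of them at least 2-fold (30.4%, against 9.95% of all genes), and 4 were at least 2-fold lower (5.06%, against 18.3%). The highest were Cox6b2 (3.47 times), Uqcrc1 (3.35), Ndufa2 (3.12), Cox7a1 (3.09) and Uqcr11 (2.99). The lowest were Cox7a2 (0.0971 times), Ndufs1 (0.181), Cox7b (0.183), Ndufa4 (0.441) and Uqcrc2 (0.541). Cox7a2 was at 41.5 CPM there, against 432.2 and 432.4 in replicates 2 and 3. By complex, the sum in replicate 1 was 1.70 times the mean of the others for complex I, 0.964 for II, 1.74 for III, 1.65 for IV and 1.33 for V.

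The members have short transcripts, with a median of 875 bases against 2975.5 over all tested genes (GENCODE vM21, the transcript with the longest coding sequence), and a GC content of 49.8% against 45% in the last 500 bases. Across all genes, the difference of replicate 1 from replicates 2 and 3 fell with length (Spearman's rho -0.31) and rose with GC content (0.55), and across the members the values were -0.41 and 0.49. The plot of replicate 1 against transcript features shows the members mostly at or above the middle of genes of their length, with Cox7a2, Cox7b and Ndufs1 far below.

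**Figure D5:**
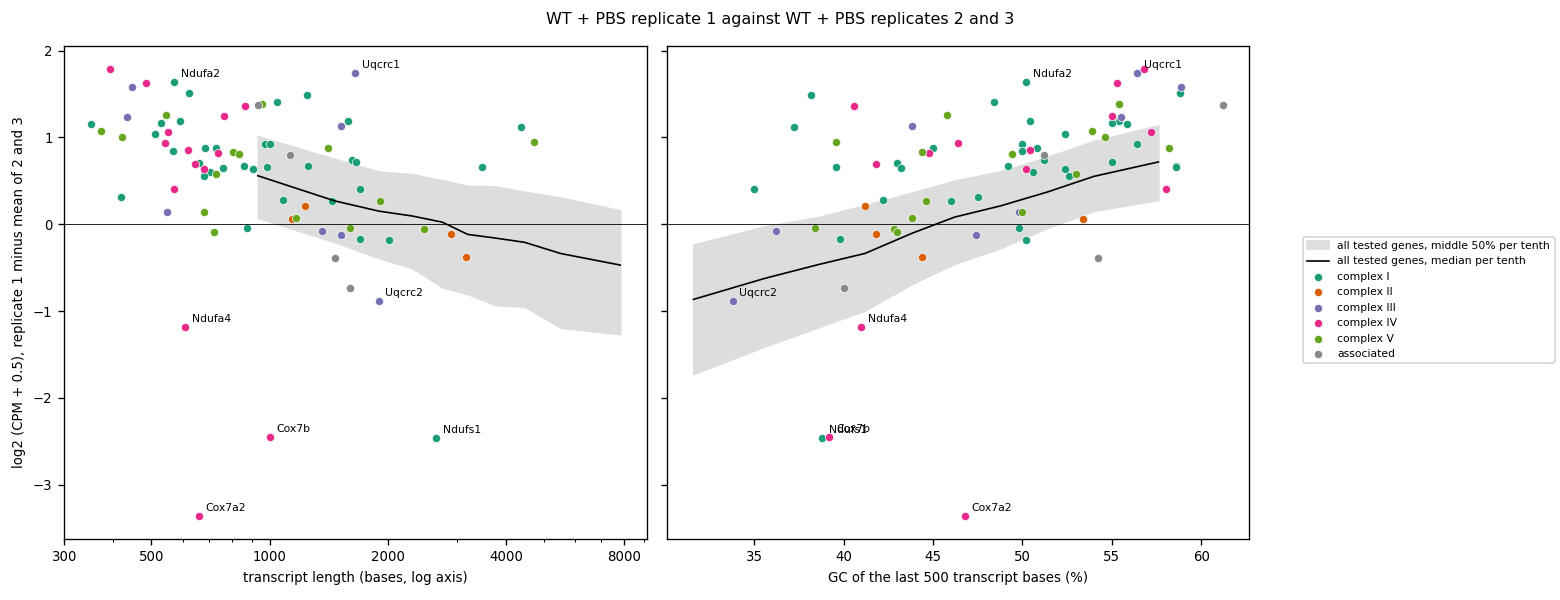
Difference of WT + PBS replicate 1 from the mean of replicates 2 and 3 (vertical, log2 of CPM + 0.5) against transcript length (left, log axis, bases) and GC content of the last 500 transcript bases (right, percent). Points are the 79 tested members by complex, the line and band the median and interquartile range of all tested genes, in bins. Most members lie above 0 (62 of 79) and Cox7a2, Ndufs1 and Cox7b lie lowest.

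Other genes of mitochondrial energy supply were counted from lists. Their counts can be read against the shares of all tested genes that passed, which were 3.89% lower and 6.7% higher in WT mice, and 2.44% lower and 5.32% higher in MyTrMaSt mice. These shares became 4.05%, 8.58%, 7.87% and 10.7% without WT + PBS replicate 1. The lists are short, so 1 or 2 calls in a list say little about it.

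Of 11 tested complex I assembly factors 1 fell in each genotype, and it was Ndufaf2 both times (log2 fold change -0.94, adjusted p = 0.0226, in WT; -0.96, adjusted p = 0.00863, in MyTrMaSt). Its CPM ranged from 27.7 to 34.6 with CBE and from 45.1 to 96.6 with PBS in WT mice, and from 29.7 to 40.9 with CBE and from 58.7 to 83.1 with PBS in MyTrMaSt mice. The WT value was -0.56 without WT + PBS replicate 1 and no longer passed (adjusted p = 0.0583). Of 15 complex IV assembly factors, Cox14 fell in WT mice (-0.61, adjusted p = 0.0356), but not without that library (-0.32, adjusted p = 0.105). In MyTrMaSt mice Coa6 fell (-0.59), and without WT + PBS replicate 1 so did the copper chaperone Cox17 (-0.57, adjusted p = 0.000648) and Cox11 (-0.76, adjusted p = 0.0354).

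Of 6 assembly factors for complex III, Uqcc2 fell in WT mice (-0.96, adjusted p = 0.0401). It was at 588.4 CPM in WT + PBS replicate 1, at 202.3 and 213 in replicates 2 and 3 and at 159.1 to 178.4 with CBE, and without that library the value was -0.28 (adjusted p = 0.192). Bcs1l, which inserts the Rieske protein, fell in MyTrMaSt mice (-0.98, adjusted p = 0.00915, and -0.97 without WT + PBS replicate 1). Of 3 factors for complex II and 2 for complex V, 0 passed with all libraries. Without WT + PBS replicate 1 the complex II factor Sdhaf4 fell in MyTrMaSt mice (-0.45, adjusted p = 0.0330), and Tmem70, which helps build ATP synthase, fell in both WT (-0.48) and MyTrMaSt mice (-0.42).

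Cycs, cytochrome c, fell in MyTrMaSt mice (-1.55, SE 0.41, adjusted p = 0.0252), from 3.88 to 6.34 CPM with PBS to 0.98 to 2.34 with CBE. This is a low level resting on few counts. Of 16 citric acid cycle genes, in MyTrMaSt mice Idh2, the NADP-dependent mitochondrial isocitrate dehydrogenase, rose (0.91, adjusted p = 0.00199) and Pdhb, of pyruvate dehydrogenase, fell (-0.55, adjusted p = 0.0167). In these mice 14 of 16 were below 0 (49.4% of all genes), with a median of -0.24. Without WT + PBS replicate 1 the cycle genes Dld (-0.43), Fh1 (-0.38), Ogdh (-1.07) and Sucla2 (-0.40) fell there as well, which made 5 lower and 1 higher. Ogdh was at a low level, 4.83 to 15.5 CPM in MyTrMaSt + PBS and 4.05 to 7.01 in MyTrMaSt + CBE. In WT mice 0 of 16 passed with all libraries (median -0.26), and Cs, Dlat, Dld, Idh2 and Pdha1 were above 0. Idh2 rose in WT mice without WT + PBS replicate 1 (0.68, adjusted p = 0.00725). Of 14 genes for the outer membrane and import, the import receptor Tomm70a (-0.69) and the phosphate carrier Slc25a3 (-0.45) fell in MyTrMaSt mice, joined by the ADP/ATP carrier Slc25a4 (-0.29, adjusted p = 0.0383) without WT + PBS replicate 1. In WT mice 0 passed either way. Of 9 regulators of mitochondrial biogenesis 1 passed, Esrra, an orphan nuclear receptor, which fell in WT mice with all libraries (-0.62, adjusted p = 0.0129) and without replicate 1 (-0.51, adjusted p = 0.0176).

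Of 16 glycolytic genes, Eno2 (-0.79), Gpi1 (-0.69) and Pgam1 (-1.36) fell and Hk2 rose (2.34) in WT mice. Hk2 was at 0 to 2.76 CPM with PBS and at 4.82 to 10.8 with CBE there, and Pgam1 at 8.84 to 17.2 and 3.76 to 5.42. These are low levels resting on few counts. Leaving out WT + PBS replicate 1, Eno2 (-0.61), Pgam1 (-1.11) and Hk2 (2.08) still passed and Gpi1 did not (-0.34, adjusted p = 0.138). In MyTrMaSt mice Aldoc, the astrocytic aldolase, rose (0.70, and 0.71 without that library). Without that library Eno2 (-0.33, adjusted p = 0.0120) and Pgam1 (-0.81, adjusted p = 0.0189) fell in MyTrMaSt mice too. Gapdh passed as higher in the same fit (3.83, adjusted p = 0.0164), but it was at 225.2 and 306.4 CPM in MyTrMaSt + CBE replicates 1 and 2 and at 5.67 to 8.98 in all other MyTrMaSt libraries.

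Markers of brain cell types moved with CBE as well. Of all tested genes, 3.89% were lower and 6.7% higher in WT mice, and 2.44% and 5.32% in MyTrMaSt mice. Without WT + PBS replicate 1 these shares were 4.05% and 8.58% in WT mice, and 7.87% and 10.7% in MyTrMaSt mice. Over the 8 neuronal markers the summed CPM was 4766 to 5158 with PBS and 3670 to 4003 with CBE in WT mice, with 3 lower, and 5012 to 5849 and 4033 to 4755 in MyTrMaSt mice, with 1 lower. These calls were 4 lower in WT mice, and 3 lower and 1 higher in MyTrMaSt mice, without WT + PBS replicate 1. Over the 7 oligodendrocyte markers the sum was 17100 to 20700 and 10370 to 13430 in WT mice, with 6 lower (7 without replicate 1), and 16930 to 20320 and 12820 to 17080 in MyTrMaSt mice, with 0 passing (2 lower without it). Over the 8 microglial markers it was 517.5 to 762.6 and 2540 to 3045 in WT mice, and 427.6 to 465.7 and 1442 to 1634 in MyTrMaSt mice, with 6 higher in each genotype (7 and 6 without replicate 1). Over the 7 astrocyte markers it was 2892 to 3461 and 3987 to 4373 in WT mice, with 3 higher and 1 lower, and 3387 to 3799 and 4378 to 4763 in MyTrMaSt mice, with 2 higher; without replicate 1 there were 4 higher and 0 lower in each genotype. None of these markers was at 0 in any library. Of 4 pericyte markers Rgs5 fell in both genotypes (-1.28, adjusted p = 0.0318, and -1.38, adjusted p = 0.00529), and of 6 endothelial markers tested Ly6c1 rose in MyTrMaSt mice (0.65, adjusted p = 0.0231), where Flt1 also fell without WT + PBS replicate 1 (-0.66, adjusted p = 0.0103). The summed level was 149.5 to 180.6, 140.5 to 166.9, 188.4 to 220.3 and 145.0 to 177.3 CPM for pericytes (PBS then CBE, WT mice first), and 239.2 to 332.1, 247.0 to 299.1, 206.8 to 234.2 and 194.4 to 270.8 CPM in the same order for the endothelial list, whose 7 genes include the untested Slco1a4, at 0 in 2 libraries. Of 4 choroid plexus markers and 1 erythroid marker 0 passed within either genotype by edgeR, with or without that library. At an unadjusted p under 0.05 stood 1 of these, Alas2 in MyTrMaSt mice (-0.51, adjusted p = 0.119), joined there by Kl without that library. Over the choroid plexus markers the summed level was 1255 to 3382, 1510 to 2466, 2550 to 4237 and 1852 to 2930 CPM in that order. The part of these shifts in the lower level of the respiratory chain members was not tested.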

How the data were processed

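Bulk MARSseq libraries of transcript 3′ ends from mouse brain RNA were sequenced by the authors on a NextSeq 500 and mapped to mm10 with hisat 0.1.6, keeping reads that map once; cutadapt and HTSeq are named in the submitters' processing notes. The authors deposited raw counts, as whole numbers for each gene. The annotation, strand setting and use of molecular identifiers are not given in the sources used here. The authors' normalized values and their own fold changes and p-values were not used.

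Low genes were removed with filterByExpr (4 groups), and the rest were scaled by TMM and tested in edgeR 4.0.16 (R 4.3.3) by the quasi-likelihood test, with 4 group means over 14 libraries. P-values were adjusted over all tested genes by Benjamini-Hochberg, and a call is an adjusted p below 0.05. The SE is the log2 fold change divided by the square root of F. CPM is relative to each library's total (1290616 to 3704691 counts) multiplied by its TMM factor (0.861 to 1.025). Counting error is only part of the spread between mice. DESeq2 1.42.0, limma 3.58.1 voom and other settings served as alternatives.

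The members and lists were chosen with earlier results of these data known. Named with values are called members, the extremes of each complex, complex II, paired isoforms, the 3 most abundant members by the mean over 14 libraries, the 5 farthest from the group in WT + PBS replicate 1, and called genes of the lists; further genes were named after their values were seen. The 2-fold rule was a second threshold. Scripts were tested on simulated data. Replicates with the same number were not paired: the correlation of their deviations ran from -0.184 to 0.173 over 18 pairs. No 2 libraries of a group were alike within sampling noise (chi-square per degree of freedom 2.31 to 20.2). One member counted among those tested is not reported singly here.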

Additional observations from a re-analysis of the deposited data

How the results depend on the processing

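The number of members called moved with the setting, while nearly all calls stayed lower with CBE. In WT mice the 7 calls became 17 at an adjusted p of 0.1, 12 with DESeq2, 4 with at least 10 counts in every library, 0 with only the groups compared, 1 with the Xist level as a covariate, and 0 to 30 when a library was left out. In MyTrMaSt mice the 5 calls became 10 at an adjusted p of 0.1, 17 with limma voom, 8 with at least 10 counts in every library, 15 with only the groups compared, 1 with the Xist covariate, 19 with DESeq2 without WT + PBS replicate 1, and 1 to 17 when a library was left out. Between the PBS groups 0 became 1 with DESeq2, 2 with limma voom, 3 with DESeq2 without WT + PBS replicate 1 and 0 to 2 when a library was left out. Between the CBE groups 0 became 1 with only the groups compared. For the interaction 0 became 1 with limma voom, 2 with DESeq2 without WT + PBS replicate 1 and 0 to 1 when a library was left out. For CBE averaged over the genotypes 18 became 30 at an adjusted p of 0.1, 32 with limma voom, 11 with the Xist covariate, 28 with DESeq2 without WT + PBS replicate 1 and 9 to 29 when a library was left out. The averaged comparison and DESeq2 without that library were added after seeing the data. Apart from the fewer samples or genes that these settings use, the cause was not tested.

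A replicate block gave 4 calls in WT mice, 1 in MyTrMaSt mice and 7 in the averaged comparison. The replicate number is only a name here, since 3 of 18 pairs with the same number correlated above 0.1.

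Among the named genes followed through 23 alternatives (22 for Atp5g2), the log2 fold change of 5 changed sign, none of them called in that comparison with all libraries. Other members also did so without WT + PBS replicate 1, as Sdhc in WT mice (0.07 to -0.03). In MyTrMaSt mice Atp5g2 (0.18) went to -0.0448 and -0.0188 without MyTrMaSt + PBS replicate 2 or MyTrMaSt + CBE replicate 4 (0.663 at most, without MyTrMaSt + PBS replicate 1). Cox4i1 (0.00) went to -0.0033 with RLE factors and with DESeq2, -0.0284 with limma voom, -0.0076 with at least 10 counts, -0.0044 with the replicate block, -0.0163 with the Xist covariate, -1e-04 with DESeq2 without WT + PBS replicate 1, and, without a single library, -0.0213 to 0.0373 (below 0 also at -0.0047, -0.0056 and -0.0062). In WT mice limma voom, leaving out WT + PBS replicate 1 and DESeq2 without it gave -0.1655, -0.2482 and -0.2531 for Cox7b and -0.1616, -0.2421 and -0.2454 for Ndufs1. Their highest values without a single library were 0.495 for Cox7b and 0.4544 for Ndufs1. Uqcrc2 (-0.02) went to 0.0337 with at least 10 counts, and to 0.065, 0.1100 and 0.1262 without a single library (lowest -0.2365).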
